A study of Mus musculus with 4 samples.

Results

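The 7 genes described here, Trf, Tfrc, Steap3, Slc11a2, Fth1, Slc40a1 and Cp, carry iron in body fluids, bring it into cells, store it or release it. They were taken by gene symbol for their role, by a rule that uses no measured value, from the 22609 genes of the deposited count table, and all 7 passed the filter on low counts that left 14788 genes for testing. The libraries hold polyadenylated RNA of whole testes from mice at postnatal day 3 on a mainly C57BL/6J background. In 2 mutant libraries the thyroid hormone receptor alpha 1 is labelled dominant negative, a form that blocks the normal receptor. In 2 wild-type libraries the receptor is labelled wild type. The mice came from matings of AmhCre animals, whose Cre recombinase is made in Sertoli cells, with heterozygous carriers of the TRαAMI allele. The title of the series places the mutant receptor in Sertoli cells, while all cells of the testis are in the libraries, and the labels do not say which wild-type animals carried Cre or the unrecombined allele. Nothing in them ties a library to a separate animal, and the spread behind each p-value, which is that between these samples, may therefore be technical.

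Iron travels in blood and in the fluid of the seminiferous tubule bound to transferrin, the product of Trf. Cells take up the complex through the transferrin receptor (Tfrc), reduce the iron in endosomes (Steap3) and pass it into the cytosol (Slc11a2). Ferritin, whose heavy chain is Fth1, stores it, ferroportin (Slc40a1) exports it, and ceruloplasmin (Cp) is a copper enzyme that oxidises exported iron so that transferrin can bind it. Sertoli cells, the somatic cells that surround the germ cells, secrete transferrin. In the adult testis they are known for supplying iron to germ cells that lie beyond the blood-testis barrier. This account of the barrier and of tubule fluid is of the adult, and whether it holds at postnatal day 3 was not tested. When iron is scarce, iron regulatory proteins bind hairpins called iron-responsive elements, which blocks translation when the hairpin is in a 5′ UTR and protects the mRNA when it is in the 3′ UTR of Tfrc.

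These hairpins are shown because they set apart a member whose mRNA level reads the iron state of a cell (Tfrc) from members controlled largely at translation (Fth1 and Slc40a1), which mRNA counts do not measure. A search of GENCODE M1 transcripts (NCBIM37, the assembly also called mm9) for the loop CAGTGN closed by a stem of 5 base pairs with an unpaired C before it found elements in 3 of the 7 genes. Fth1 and Slc40a1 had 1 each in the 5′ UTR, and Tfrc had 4 in the 3′ UTR. Of all genes with an annotated UTR, 0.166% had a match in a 5′ UTR and 0.623% in a 3′ UTR. No match in the other members says only that this loop with this exact stem and unpaired C is not in their annotated UTRs. A hairpin with another loop, or with a different or interrupted stem, would be missed. The other members are therefore not shown to lack an element, and the 4 in Tfrc are not shown to be all it has. Capitals mark the loop, and each 27-base stretch was the same in the genome.
Fth1 5′ UTR, chr19:10057223-10057249, plus strand: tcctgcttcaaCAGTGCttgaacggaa
Slc40a1 5′ UTR, chr1:45982311-45982337, minus strand: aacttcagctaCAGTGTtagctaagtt
Tfrc 3′ UTR element 1, chr16:32631306-32631332, plus strand: attatcggaagCAGTGCcttccataat
Tfrc 3′ UTR element 2, chr16:32631685-32631711, plus strand: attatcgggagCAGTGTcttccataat
Tfrc 3′ UTR element 3, chr16:32631750-32631776, plus strand: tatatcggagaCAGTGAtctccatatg
Tfrc 3′ UTR element 4, chr16:32631797-32631823, plus strand: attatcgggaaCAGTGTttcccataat

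Levels are CPM, the counts of a gene scaled to a common library total with edgeR's trimmed mean of M values (TMM), and where 2 values are given for a group they are those of replicates 1 and 2. Gene counts were 11089136 and 15636832 in the mutant pair and 13228903 and 10230512 in the wild-type pair. Thra, which carries the engineered allele, was at 237 and 194 CPM in the mutant pair and 398 and 257 CPM in the wild-type pair (adjusted p = 0.0965), and counts per gene do not separate the 2 alleles, so this does not check the labels. The mutant libraries stand apart by skeletal muscle RNA, with 11 of 14 markers called higher. Adipocyte markers, 9 of 10 tested and none at 0 in all 4 libraries, had 4 called lower and summed to 228.9 and 171.6 CPM in the mutant pair and 320.5 and 273.8 CPM in the wild-type pair. Peritubular and stromal markers, all 12 tested and none called by edgeR, summed to 13570 and 13080 CPM in the mutant pair and 11220 and 8443 CPM in the wild-type pair. Sertoli markers, all 20 of them tested and none at 0, had 1 called higher and 3 lower and summed to 7688 and 7890 CPM in the mutant pair and 8800 and 9707 CPM in the wild-type pair. Germ cell markers had 13 of 19 tested called lower and summed to 444.5 and 389.3 CPM in the mutant pair and 1124 and 744.1 CPM in the wild-type pair. Red cell markers, relevant because red cell precursors are rich in Tfrc, summed to between 14.8 and 29.4 CPM over the 4 libraries, with none of 4 tested called by edgeR, and Hba-a1, Hba-a2 and Rhag were at 0. The hemoglobin copies are near-identical, and reads with several alignments were kept out of the gene counts. The parts of these cells in the values of the 7 genes and of the other iron genes below were not tested.

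None of the 7 genes was called by edgeR's quasi-likelihood test, where a call means a Benjamini-Hochberg adjusted p below 0.05 over all tested genes. The background was 5.67% of all tested genes called, 3.15% higher and 2.52% lower in mutant testes. At an unadjusted p below 0.05 there were 2 members, Trf and Cp, against a background of 25.5%. DESeq2 called 1 member, Trf, and limma voom called none. Over all genes, DESeq2 called 591 higher and 394 lower, and limma voom called 309 higher and 272 lower. The edgeR fit called 466 higher and 373 lower. The median log2 fold change, mutant minus wild type, was 0.07 over the members and -0.006 over all tested genes, and the median of its absolute size was 0.13 over the members and 0.19 over all tested genes. The groups did not overlap in 5 members, as in 57.3% of all tested genes. The mutant pair was the higher one in 3 of them, with a background of 28.3%, and the lower one in 2, with a background of 29.0%. Counts behind the members' levels ran between 324 and 11609 per library.

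**Figure D1:**
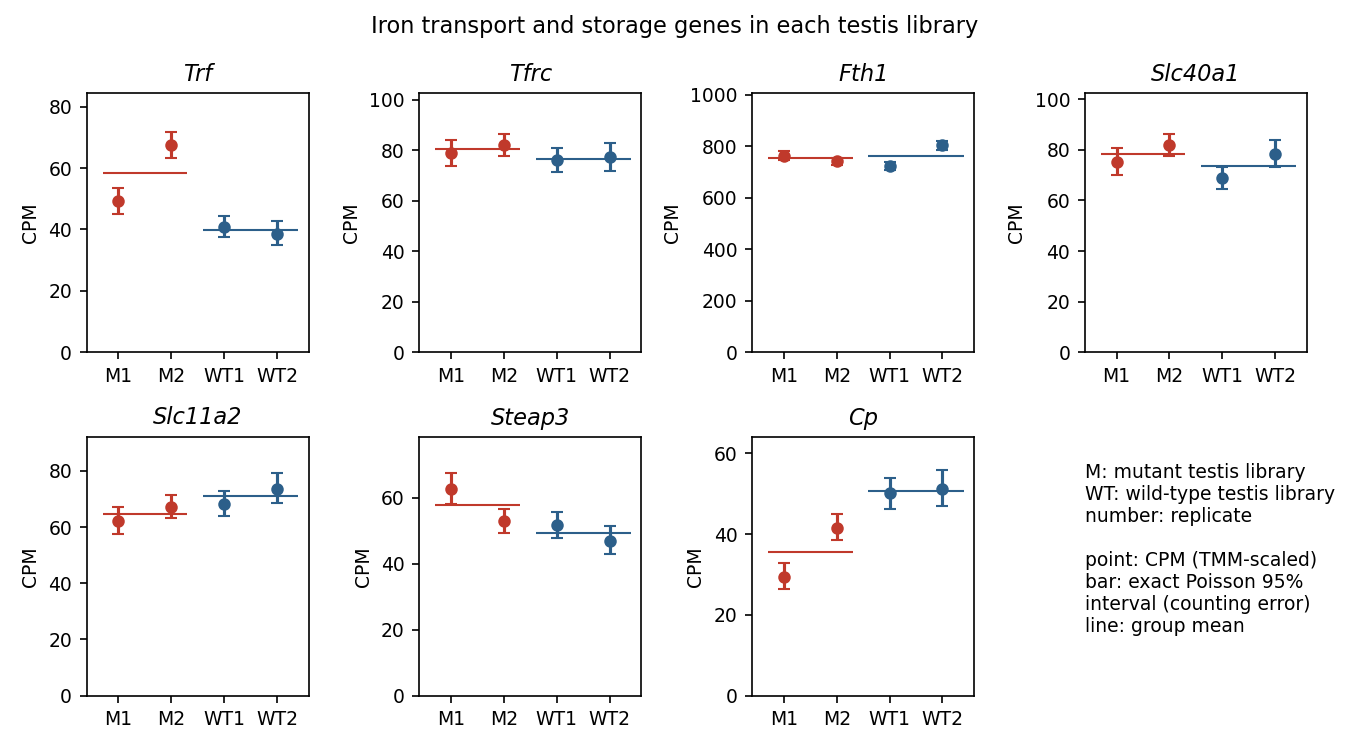
CPM of each of the 7 genes (vertical axes, starting at 0) in mutant replicates 1 and 2 and wild-type replicates 1 and 2 (horizontal axes). Points are libraries, bars are exact Poisson 95% intervals for counting error and lines are group means. Trf lies higher and Cp lower in both mutant libraries, with a gap between the 2 mutant libraries in each, while Tfrc and Fth1 stay close across all 4.

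The iron carrier came nearest to a call. Trf (chromosome 9, 103106331 to 103132774, minus strand, mm9) stood at 49.1 and 67.5 CPM in the mutant pair and at 40.8 and 38.6 CPM in the wild-type pair. Both mutant libraries were above both wild-type libraries, and mutant replicate 2 was above mutant replicate 1 by more than counting error, with exact Poisson 95% intervals of 63.5 to 71.7 and 45.1 to 53.5 CPM. Its means were 58.3 ± 13.0 CPM in mutant and 39.7 ± 1.53 CPM in wild-type testes (SD, n = 2 each). The log2 fold change was 0.56 ± 0.15 (SE; 95% interval 0.21 to 0.91), or 1.47-fold, with an adjusted p of 0.0688 by edgeR. The interval is for the gene alone and is not adjusted over genes. Among all tested genes, 1332 had a smaller p and 14.2% had a larger absolute log2 fold change.

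The call of Trf depended on the tool and on single libraries. DESeq2 called it at a log2 fold change of 0.56 (adjusted p = 0.0382), and edgeR called it at 0.76 without mutant replicate 1 (adjusted p = 0.00162). Without mutant replicate 2 the log2 fold change was 0.31 (adjusted p = 0.299). In whole tissue, a change in the number of cells that make a transcript and a change in its amount per cell cannot be told apart. Macrophage markers, with 3 of 14 called higher and none at 0, were also highest in mutant replicate 2 and summed to 462.5 and 640.7 CPM in the mutant pair and to 301.7 and 372.7 CPM in the wild-type pair. Their part in the Trf result was not tested. Transferrin and ceruloplasmin are also major products of liver, whose 8 markers, 3 of them tested and none called by edgeR, summed to 29.9 and 29.5 CPM in the mutant pair and 37.6 and 29.8 CPM in the wild-type pair. Among them Alb was at 0.637 and 0.830 CPM in the mutant pair and 0.826 and 0.196 CPM in the wild-type pair. Ttr, Serpina1a and Fgb were at 0 in all 4 libraries. Afp, also a liver marker, was at 16.3 and 10.7 CPM in the mutant pair and 21.1 and 18.7 CPM in the wild-type pair. It was lower in both mutant libraries but not called (adjusted p = 0.137 by edgeR). The part of liver RNA in the Trf and Cp results was not tested. In the annotation, exons under the name Trf overlap those of Srprb on the same strand. Srprb, a subunit of the signal recognition particle receptor, was read at 133 and 123 CPM in the mutant pair and 138 and 134 CPM in the wild-type pair.

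Ceruloplasmin had a difference of the opposite sign. Cp (chromosome 3, 19857054 to 19909145, plus strand) was read at 29.5 and 41.6 CPM in the mutant pair and at 50.1 and 51.3 CPM in the wild-type pair. Both mutant libraries were below both wild-type libraries, which differed little from each other, and mutant replicate 1 was the lowest of all. The means were 35.6 ± 8.58 CPM in mutant and 50.7 ± 0.829 CPM in wild-type testes (SD, n = 2 each). The log2 fold change was -0.50 ± 0.16 (SE; 95% interval -0.86 to -0.14), a ratio of 0.707, and its adjusted p was 0.0994. With mutant replicate 2 left out it was called at -0.78 (adjusted p = 0.00372), and without mutant replicate 1 it was at -0.28 (adjusted p = 0.392). Skeletal muscle markers, of which 11 of 14 were called higher and none was at 0 in all 4 libraries, summed to 2882 and 729.8 CPM in the mutant pair and to 34.1 and 32.4 CPM in the wild-type pair, and their part in the Cp result was not tested. Exons of Cp overlap those of Hps3, a gene of lysosome-related organelles on the other strand, and without a stated strand setting their reads cannot be separated there. Hps3 stood at 38.3 and 41.8 CPM in the mutant pair and 40.6 and 42.6 CPM in the wild-type pair.

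Trf and Cp, whose products act in turn when iron leaves a cell, were also compared within each library. Counts of Trf per count of Cp were 1.67 and 1.62 in mutant replicates 1 and 2, with exact 95% intervals for counting error of 1.45 to 1.92 and 1.47 to 1.79. They were 0.814 and 0.753 in wild-type replicates 1 and 2, with intervals of 0.726 to 0.913 and 0.659 to 0.860. Both mutant ratios were above both wild-type ratios, and the replicates of each group lay close together although mutant replicate 2 held 1.37 times the Trf and 1.41 times the Cp of mutant replicate 1. The mean ratio was 2.10 times as high in mutant as in wild-type testes. A ratio within a library does not depend on how libraries are scaled, but as the annotated exons of Cp are the longer ones it is a ratio of reads and not of transcripts. The groups did not overlap in 16 of the 21 pairs of members, so separation of a ratio was common among them. The pairs share members and are not independent, and the share over ratios of all tested genes was not computed. Trf over Cp had the largest group difference of the 21 and was chosen after the values were seen, so it is given with no test. An exact permutation test of 2 against 2 libraries cannot give a two-sided p below 0.333.

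**Figure D2:**
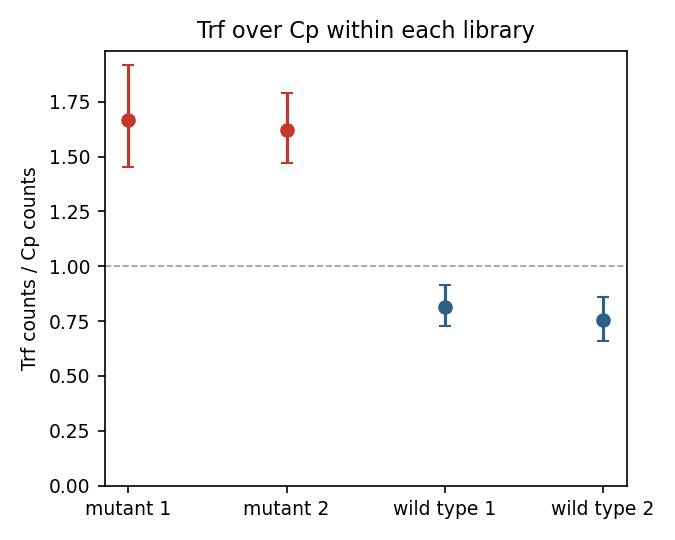
Counts of Trf divided by counts of Cp (vertical axis, starting at 0) in mutant replicates 1 and 2 and wild-type replicates 1 and 2 (horizontal axis), with exact 95% intervals for counting error and a dashed line at equal read counts. The mutant libraries, at 1.67 and 1.62, lie close together and above the wild-type libraries, at 0.814 and 0.753.

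None of the uptake genes was called. Tfrc, the receptor for iron-loaded transferrin (chromosome 16, 32609006 to 32632880, plus strand), was read at 78.8 and 82.0 CPM in the mutant pair and at 76.1 and 77.2 CPM in the wild-type pair. All 4 libraries lay within a narrow band, with the mutant pair just above the wild-type pair. The log2 fold change of Tfrc was 0.07 ± 0.09 (SE; adjusted p = 0.661), and the 95% interval allows a ratio between 0.913 and 1.21. Tfrc is the member in whose 3′ UTR the search found the 4 elements shown above.

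Steap3, the endosomal reductase that turns ferric into ferrous iron (chromosome 1, 122087334 to 122169282, minus strand), was read at 62.8 and 53.0 CPM in the mutant pair and at 51.7 and 47.1 CPM in the wild-type pair. The mutant libraries were both higher, but mutant replicate 2 and wild-type replicate 1 were nearly equal. The log2 fold change of 0.22 ± 0.12 (SE) was not called (adjusted p = 0.278), with a 95% interval for the ratio of 0.968 to 1.41. Unlike Trf and Cp, Steap3 was higher in mutant replicate 1 than in mutant replicate 2.

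Slc11a2, the divalent metal transporter that moves iron out of endosomes (chromosome 15, 100218329 to 100255503, minus strand), was read at 62.2 and 67.3 CPM in the mutant pair and at 68.3 and 73.6 CPM in the wild-type pair. Both mutant libraries were lower, by a small margin. Its log2 fold change was -0.13 ± 0.10 (SE; adjusted p = 0.447), with a 95% interval for the ratio of 0.783 to 1.07.

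Storage and export were likewise not called. Fth1, the ferritin heavy chain with the ferroxidase centre (chromosome 19, 10057193 to 10059582, plus strand), was read at 764 and 741 CPM in the mutant pair and at 723 and 804 CPM in the wild-type pair. The mutant pair fell between the wild-type libraries. Its log2 fold change was -0.02 ± 0.10 (SE; adjusted p = 0.918), the 95% interval allows a ratio between 0.846 and 1.15, and the sign turned to 0.053 without wild-type replicate 2. Ferritin genes have many processed copies in the genome and reads with several alignments are a separate line of the deposited table, so the level of Fth1 is uncertain.

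Slc40a1, the only known iron exporter of mammalian cells (chromosome 1, 45964915 to 45982439, minus strand), was read at 75.3 and 81.8 CPM in the mutant pair and at 68.7 and 78.4 CPM in the wild-type pair. The groups overlapped. For ferroportin the log2 fold change was 0.10 ± 0.10 (SE; adjusted p = 0.593), and the 95% interval allows a ratio between 0.908 and 1.26. Ferroportin is abundant in iron-recycling macrophages, whose markers had the summed levels given above, and their part in this value was not tested.

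**Figure D3:**
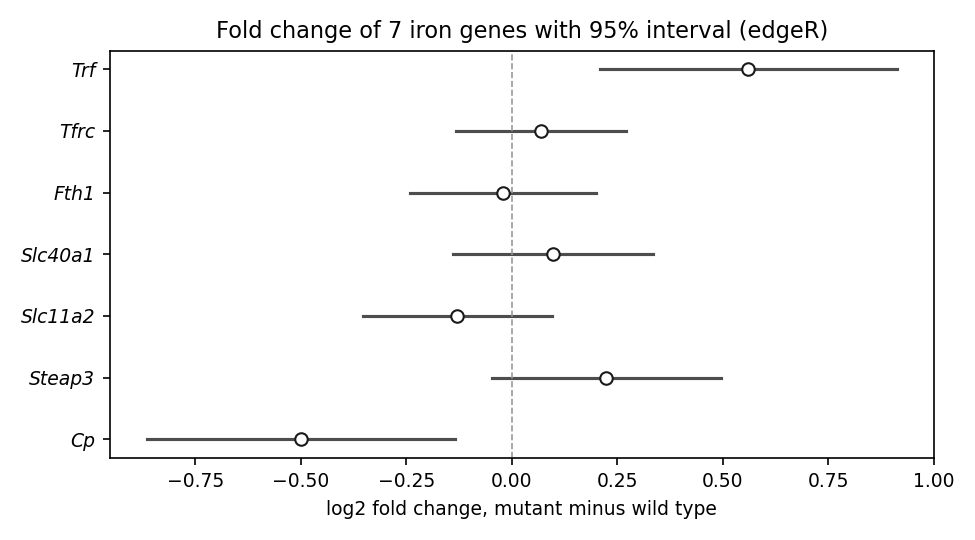
Log2 fold change, mutant minus wild type (horizontal axis), for the 7 genes, with 95% intervals from edgeR's quasi-likelihood fit that are not adjusted over genes. Open points mark that no gene was called. Trf at 0.56 and Cp at -0.50 lie on opposite sides of 0, and the other 5 intervals include 0.

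Levels of different genes were compared as CPM per kilobase of merged exons in the annotation. Fth1 was far above the rest, at 882 and 856 in mutant replicates 1 and 2 and 835 and 928 in wild-type replicates 1 and 2. The exporter Slc40a1 came next, with a mean over the 4 libraries of 22.5 CPM per kilobase, and Trf followed at 14.8, Tfrc at 12.7, Slc11a2 at 10.7, Steap3 at 9.38 and Cp at 4.51. Cp was the lowest in every library, and its range did not meet that of Steap3. Slc40a1 was above Trf in all 4 libraries, although the highest Trf level, in mutant replicate 2, just passed the lowest Slc40a1 level, in wild-type replicate 1. The ranges of Trf and Tfrc met, as did those of Slc11a2 and Steap3, and in each of these pairs the order turned in 1 of the 4 libraries. Trf stood at 14.9 and 20.4 CPM per kilobase in mutant replicates 1 and 2 and at 12.3 and 11.7 in wild-type replicates 1 and 2, which put it above Tfrc in 3 of the 4 libraries. Cp has long annotated exons, so its level per kilobase depends on which of its transcripts the testis makes.

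A further 76 genes of iron and heme handling in 7 lists gave 68 tested genes, of which 2 were called higher and 2 lower, with 14 at an unadjusted p below 0.05. The backgrounds are the 3.15%, 2.52% and 25.5% given above. DESeq2, which called more genes than edgeR over the whole table, called 5 of them, and limma voom, which called fewer, called 2. The median log2 fold change over the 68 was -0.06, and 27 were above 0, where 49.2% of all tested genes were. Fits without wild-type replicate 1 or 2 called far fewer genes over the whole table than the fit reported, which bears on the lost calls given below.

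Both called genes of the uptake list reduce metals or electron carriers in membranes. Cybrd1, a cytochrome b reductase that reduces ferric iron at the gut surface (chromosome 2, 70955980 to 70980983, plus strand), was read at 35.0 and 51.2 CPM in the mutant pair and at 23.3 and 25.4 CPM in the wild-type pair. It rose 1.79-fold (log2 fold change 0.84 ± 0.18 SE, adjusted p = 0.0403 by edgeR), with mutant replicate 2 above replicate 1 as for Trf. It was no longer called without wild-type replicate 1 (log2 fold change 0.77) or 2 (0.90), with limma voom (0.83) or without the low-count filter (0.84), nor without mutant replicate 2, where the log2 fold change was 0.53. Cyb561, a cytochrome b561 of secretory vesicles from the same protein family (chromosome 11, 105795016 to 105814650, minus strand), was read at 30.2 and 36.1 CPM in the mutant pair and at 62.4 and 52.7 CPM in the wild-type pair. It fell 1.73-fold (log2 fold change -0.79 ± 0.13 SE, adjusted p = 0.0215), and the call ended without wild-type replicate 1 (log2 fold change -0.67) or 2 (-0.91). The other 11 tested genes of the list were not called by edgeR, DESeq2 called 3 of the 13 and limma voom 1, and 5 of the 13 had an unadjusted p below 0.05, with a median of -0.05.

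In heme handling, 1 of 13 genes of breakdown, scavenging and transport fell and none rose, with a median of -0.10. It was Mfsd7c, also named Flvcr2, a membrane transporter of the family that holds a heme exporter (chromosome 12, 87087489 to 87154535, plus strand). Mfsd7c was read at 35.6 and 37.7 CPM in the mutant pair and at 62.3 and 62.7 CPM in the wild-type pair. Both pairs were tight and far apart. It fell 1.70-fold (log2 fold change -0.77 ± 0.10 SE, adjusted p = 0.0101). It lost its call without wild-type replicate 1 or 2, where calls over all genes also became fewer, at little changed log2 fold changes of -0.78 and -0.77. Of 9 genes of heme synthesis none was called by edgeR, DESeq2 or limma voom, 2 had an unadjusted p below 0.05 and the median was -0.07. Alad, the aminolevulinate dehydratase and the most abundant of the list, was at a log2 fold change of -0.31 ± 0.09 (SE; adjusted p = 0.0783).

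The export and hepcidin list had 1 of 7 genes called higher, with 2 at an unadjusted p below 0.05 and a median of 0.11. Hfe2, or hemojuvelin, a BMP coreceptor made chiefly in skeletal muscle and liver (chromosome 3, 96329108 to 96333139, plus strand), had 206 and 57 counts in mutant replicates 1 and 2 and none in either wild-type library. Against a floor of 3 counts over the wild-type group it was at least 77.3-fold higher (adjusted p = 0.0473 by edgeR, 0.408 with its robust option), and the call also ended without wild-type replicate 1 or 2, with limma voom, with library size alone and without the low-count filter. At 18.7 and 3.64 CPM in mutant replicates 1 and 2 it had the order of the muscle actin gene Acta1, which stood at 875 and 222 CPM in the mutant pair and 0.601 and 0.686 CPM in the wild-type pair. The part of muscle RNA in this result was not tested. Hamp, the gene of hepcidin itself, had no count in any library.

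**Figure D4:**
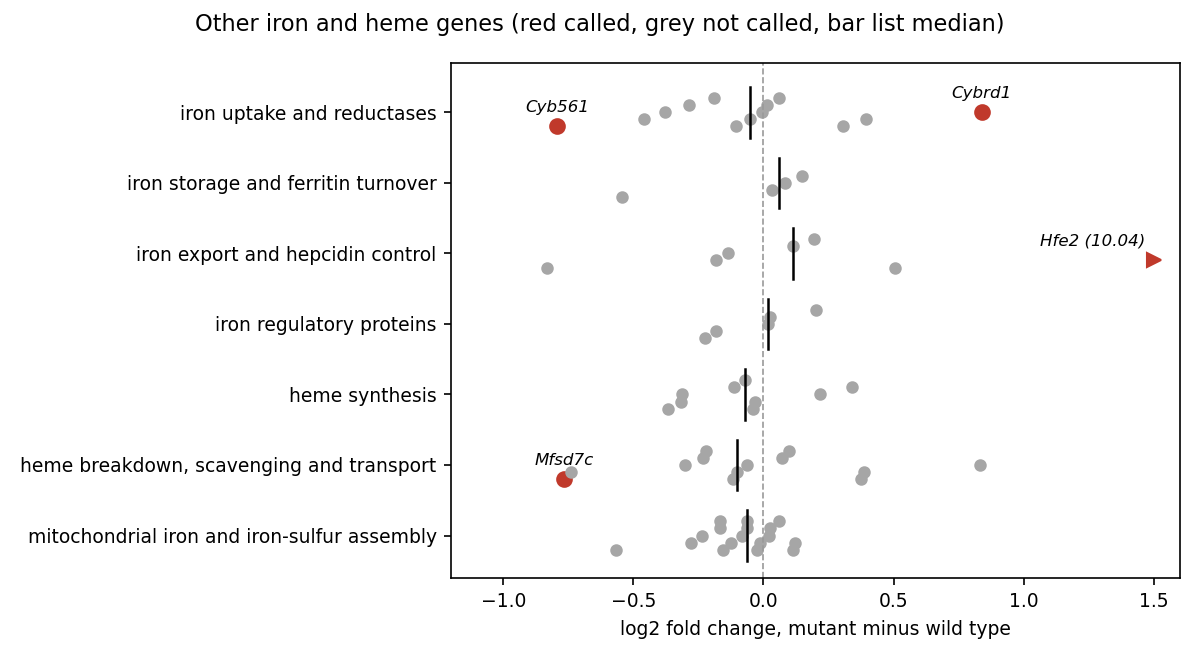
Log2 fold change, mutant minus wild type (horizontal axis), of 68 tested genes in 7 lists of iron and heme handling (vertical axis). Red marks called genes, grey genes that were not called, black bars list medians, and the arrowhead a gene off the scale at a fitted 10.04, which depends on the prior count and is no bound. The called genes are Cybrd1 to the right, Cyb561 and Mfsd7c to the left and Hfe2 off the scale.

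Among ferritin partners, no gene of 4 tested was called by edgeR, DESeq2 or limma voom, none had an unadjusted p below 0.05, and the median was 0.06. Ftl1, the ferritin light chain, was read at 401 and 209 CPM in the mutant pair and at 441 and 445 CPM in the wild-type pair. The low library was mutant replicate 2, and the others were close. Its log2 fold change of -0.54 ± 0.24 (SE) was not called (adjusted p = 0.209), and 1 library decides it: it was -1.09 without mutant replicate 1 (adjusted p = 5.2e-06) and -0.15 without mutant replicate 2 (adjusted p = 0.605). Heavy chain counts per light chain count were 1.91 and 3.55 in mutant and 1.64 and 1.81 in wild-type replicates 1 and 2. Ftl1 shares the copy problem of Fth1, so this level is uncertain too. Pcbp2, an RNA-binding protein that also hands iron to ferritin, was at 0.03 ± 0.09 (SE; adjusted p = 0.843).

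Of 5 genes of the regulators that bind the hairpins and of related control none was called by edgeR, DESeq2 or limma voom, 1 had an unadjusted p below 0.05 and the median was 0.02. Aco1, iron regulatory protein 1 and also the cytosolic aconitase, had a log2 fold change of 0.03 ± 0.12 (SE; 95% interval -0.25 to 0.30). Ireb2, iron regulatory protein 2, was at 0.02 ± 0.09 (SE; 95% interval -0.18 to 0.22). Both are named for their role and not by the rule for named genes. Hif1a, the hypoxia-inducible factor that can raise transferrin and its receptor, was at 0.20 ± 0.08 (SE; adjusted p = 0.166). Of 17 genes of mitochondrial iron and iron-sulfur cluster assembly none was called by edgeR, DESeq2 or limma voom, with 1 at an unadjusted p below 0.05 and a median of -0.06. That gene was Hscb, the cochaperone of cluster transfer, at -0.57 ± 0.14 (SE; adjusted p = 0.0539), which was called with edgeR's robust option (adjusted p = 0.0474), with a stricter low-count filter (adjusted p = 0.0483) and without mutant replicate 2 (log2 fold change -0.67, adjusted p = 0.0459).

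The pattern of Trf over the 4 libraries was compared with that of 13490 genes by the root mean square distance of centred log2 CPM. The nearest were Gpr157 at 0.0232, Ccdc27 at 0.0364 and Spock3 at 0.0374 log2 units. All 3 are scarcer transcripts, with Gpr157 at 6.10 and 8.49 CPM in the mutant pair and 5.26 and 4.80 CPM in the wild-type pair, and none was called. With 4 libraries, 9 genes lay within 0.05 log2 units.

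Promoter windows from RefSeq (GRCm38.p6; 250 bases before to 50 after a start) were at hand for Cp, Fth1, Steap3 and Tfrc. Each of these genes had more than 1 window, and Steap3 had the most. On either strand, the hexamer AGGTCA that nuclear receptors bind occurred in 1 window of Steap3 and in none of the others of these genes. That window held 1 forward and 3 reverse copies. Of 32851 windows in all, 16.3% had the hexamer. The direct repeat of AGGTCA with 4 bases of any kind between its copies occurred in no window of these genes, against 0.0152% in all. A match is a description of letters, not a binding site.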

How the data were processed

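Polyadenylated RNA of whole testes from postnatal day 3 was read from 1 end over 100 bases, per the labels' protocols. CASAVA 1.8.1, TopHat 1.4.0, HTSeq, DESeq2 and mm9 are named without role or order, per the submitters' processing notes. The authors deposited 1 table, treated as estimated counts because summary lines below the genes hold percentages. Its gene rows are whole raw counts that sum to the table's own totals, so rounding changed nothing. Reads in no annotated gene (14.4% to 17.3% of counted reads in mutant and 13.8% to 15.3% in wild-type libraries), ambiguous reads (under 1%) and reads with several alignments stayed out of library sizes. Not given in the sources used here are annotation, counting mode and strandedness.

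Counts of all genes were fitted with edgeR 4.0.16 in R 4.3.3 (quasi-likelihood F test, TMM, default filter with a minimum count of 10 and total of 15, genotype alone, legacy and robust off), with Benjamini-Hochberg adjustment over 14788 genes. The fit was checked on simulated data. SE was taken as the absolute log2 fold change over the root of F. Positions and exon lengths are from GENCODE M1. Alternatives were DESeq2 1.42.0, limma 3.58.1 voom, other edgeR options, scalings and filters, a replicate block, and fits that each dropped 1 library, where the lone library of a group is assumed to vary like the others. The members and lists were chosen with earlier results of these data known. Named genes are all members, and from each other list the called genes, or else the one with the smallest p and the most abundant one, of which some are not reported here. Of 76 listed genes, 75 were in the table, 3 of them under older symbols. Intervals on counts and the floor cover counting error only.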

Additional observations from a re-analysis of the deposited data

How the results depend on the processing

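Over the 14 other settings, 94 of 98 log2 fold changes of the 7 genes kept their sign and their side of the threshold. The exceptions were Trf, called by DESeq2 and without mutant replicate 1, Cp, called without mutant replicate 2, and Fth1, whose sign turned (-0.098 to 0.053 as each library was left out, positive without wild-type replicate 2). Calls among the 7 were 1 higher by DESeq2 and 0 to 1 in each direction as each library was left out. Beyond the libraries left out, the log2 fold change of Trf stayed within 0.54 to 0.58 (adjusted p 0.0382 to 0.0982) and that of Cp within -0.53 to -0.48 (adjusted p 0.0766 to 0.136). Over all genes, higher calls were 466 in the fit reported, 282 without a low-count filter and 309 with limma voom, and lower calls were 373 and 219 without the filter. Leaving out each library gave 34 to 818 higher and 40 to 477 lower calls. Among the 68 other iron and heme genes, higher calls were 1 with edgeR's robust option, 1 with library size alone, 1 with the stricter filter (under which Hfe2 was not tested) and 0 without a filter or with limma voom. Leaving out each library gave 0 to 2 higher and 0 to 5 lower calls. Pcbp2 turned to -0.031 without wild-type replicate 1, in a range up to 0.096. The cause of these differences was not tested. The labels' replicate numbers only name the libraries: replicates 1 of both groups deviated from their group means with r = -0.0388 over 13491 genes. With the replicate block, 512 genes were called higher and 338 lower, none of the 7 among them, with Trf at 0.54 and Cp at -0.53. The 95% intervals of the other 5 genes include 0, and the smallest difference that 2 libraries a group can show was not tested.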

Other observations

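The genes of the iron lists given here were chosen after their values were seen. Scara5 and Bmp6 came near the threshold and Slc39a14 did not. They are not all the genes near it: Abcg2, for example, had an adjusted p of 0.0683 by edgeR. Scara5, a scavenger receptor that binds ferritin in mouse, was read at 150.1 and 173 CPM in the mutant pair and at 207 and 215 CPM in the wild-type pair. Both mutant libraries were lower, at a log2 fold change of -0.38 ± 0.09 (SE; adjusted p = 0.0566 by edgeR), and DESeq2 called it (adjusted p = 0.0227), as did edgeR without mutant replicate 2 (adjusted p = 0.0227 at -0.49). Bmp6, the growth factor by which liver endothelium raises hepcidin, was read at 35.9 and 32.0 CPM in the mutant pair and at 24.4 and 23.2 CPM in the wild-type pair. For Bmp6 the log2 fold change was 0.50 ± 0.13 (SE; adjusted p = 0.0609 by edgeR). Slc39a14, a zinc transporter that also takes up iron not bound to transferrin, was read at 37.0 and 38.8 CPM in the mutant pair and at 33.4 and 27.8 CPM in the wild-type pair, and was not called (adjusted p = 0.19 by edgeR).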
